A study of Mus musculus with 8 samples.

Results

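Cntfr, Ccny, Clec2d, N6amt1, Retreg3, Stk32c and Zfyve9 were the genes with the largest falls past both thresholds (defined below) in the aged hippocampus among those measured by a single probe with a single spot. They were 7 of 19742 genes with a tested probe, of which 14478 had 1 tested probe. All 7 were chosen because they were far lower at 29 months of age (29M) than at 3 months (3M), so their falls are given here as a description, with no test. The data came from 8 samples of C57BL/6J wild-type mice that were untreated and aged in the home cage, 4 samples at 3M and 4 at 29M. The whole hippocampus was dissected by hand, and its RNA was labelled with Cy3 and hybridised to 1-colour microarrays, 1 array per sample. Each group was thus a tissue made of many cell types, in which fewer cells of a type and less RNA per cell cannot be told apart. The study bought the older mice at an advanced age and kept them for some months, so age and housing history differed together between the groups.

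The 7 genes belong to different pathways. Ccny encodes cyclin Y, a cyclin held at membranes that activates the kinases Cdk14 and Cdk16, acts in Wnt signalling through the coreceptor Lrp6 and has been studied at synapses. N6amt1 encodes a methyltransferase that, together with Trmt112, modifies the translation termination factor encoded by Etf1. Retreg3 (also called Fam134c) encodes a membrane protein of the endoplasmic reticulum that binds ATG8 proteins and takes part in ER-phagy, the degradation of parts of that organelle. Cntfr encodes the alpha subunit of the receptor for ciliary neurotrophic factor (CNTF), which signals with Il6st and Lifr through JAK kinases and Stat3. Stk32c encodes a serine/threonine kinase of the AGC group. Zfyve9 encodes SARA, an endosomal protein that presents Smad2 and Smad3 to the TGF-beta receptors. Clec2d encodes a C-type lectin-like surface protein that is a ligand of the natural killer cell receptor encoded by Klrb1b.

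All values below are normalized log2 intensities unless stated otherwise. Arrays are named by group and replicate number. The arrays lay on 3 slides, each of which held both groups, and between 76.2% and 85.0% of the spots on an array were well above background. The lowest share was on 3M replicate 1, which was also the only array that the extraction software had marked for evaluation. The 39 marker genes of 10 cell types and tissues that a hippocampal dissection could hold were all measured, and 37 were well above background on all arrays of at least 1 group. None of them passed both thresholds, with 0.709% lower and 1.46% higher among all genes, and 8 had an unadjusted p under 0.05 in limma. No share over all genes was taken for counts by unadjusted p, here or below. The medians of the marker lists ran from -0.35 for red blood cells, with all 3 genes lower, to 0.32 for microglia, with all 4 higher, and their part in the falls was not tested. Among the T and NK cell markers, Ncr1 was not well above background on any array.

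The largest of the 7 falls was that of Ccny. Its probe (A_55_P2419514) read 9.82, 9.26, 8.40 and 9.30 on the 3M arrays and 7.02, 6.74, 6.90 and 6.69 on the 29M arrays. The 29M arrays lay close together and the 3M arrays were spread, with replicate 1 highest and replicate 3 lowest. The log2 change was -2.36 with an SE of 0.25, between means of 9.19 ± 0.59 at 3M and 6.84 ± 0.15 at 29M (SD, n = 4 each). The lowest 3M array stood 1.38 above the highest 29M array, the widest gap of the 7 genes. In scanner units the spot read 355 to 895 at 3M and 99 to 133 at 29M, so the aged arrays were near the dim end.

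The 29M arrays differed most among themselves for N6amt1. The probe (A_55_P2043762) read 12.55, 11.97, 11.72 and 12.13 at 3M and 10.32, 8.54, 11.27 and 8.98 at 29M. The 29M arrays fell into a higher pair, replicates 1 and 3, and a lower pair, replicates 2 and 4. From 12.09 ± 0.35 (SD, n = 4) the mean fell by 2.32 with an SE of 0.52, to 9.78 ± 1.25 (SD, n = 4), and the gap between the groups was 0.45, the narrowest of the 7.

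Zfyve9 (A_55_P2070039) showed the same split of the aged arrays and a very narrow young group. It read 10.82, 10.60, 10.64 and 10.73 at 3M and 9.07, 8.13, 9.80 and 8.03 at 29M. The groups did not overlap, and replicate 3 was the highest aged array. The change was -1.94 (SE 0.34), from 10.70 ± 0.10 to 8.76 ± 0.84 (SD, n = 4 each).

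Cntfr (A_55_P2133007) was the brightest of the 7 at 3M. It read 13.04, 12.57, 12.58 and 12.65 at 3M and 10.85, 10.61, 11.30 and 9.76 at 29M. Replicate 4 was clearly the lowest aged array. The change was -2.08 (SE 0.28), from 12.71 ± 0.22 to 10.63 ± 0.65 (SD, n = 4 each). Retreg3 (A_51_P220682) was spread in both groups. It read 12.73, 11.79, 11.41 and 11.73 at 3M and 9.90, 9.40, 10.57 and 9.38 at 29M. The change was -2.10 (SE 0.32), from 11.92 ± 0.57 to 9.81 ± 0.56 (SD, n = 4 each), and here too 3M replicate 1 and 29M replicate 3 were the highest of their groups.

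The remaining pair, Stk32c and Clec2d, resembled Ccny in that the young arrays were spread and the aged arrays were dim. Stk32c (A_52_P287692) read 10.55, 8.95, 8.52 and 8.92 at 3M and 7.45, 7.28, 7.33 and 7.23 at 29M. A single young array, replicate 1, stood far above the other young arrays, and without it the change of Stk32c was -1.47 in place of -1.92 (SE 0.36). The group values were 9.24 ± 0.90 and 7.32 ± 0.09 (SD, n = 4 each). Clec2d (A_55_P2115442) read 9.04, 7.95, 7.32 and 8.29 at 3M and 6.65, 6.27, 6.74 and 6.12 at 29M. It was the dimmest of the 7, at 67 to 103 scanner units in the aged group, and was well above background on 3 of the 4 aged arrays, replicate 4 being the exception. Its change was -1.71 (SE 0.31), from 8.15 ± 0.72 to 6.44 ± 0.30 (SD, n = 4 each). The other 6 genes were well above background on all 8 arrays.

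**Figure D1:**
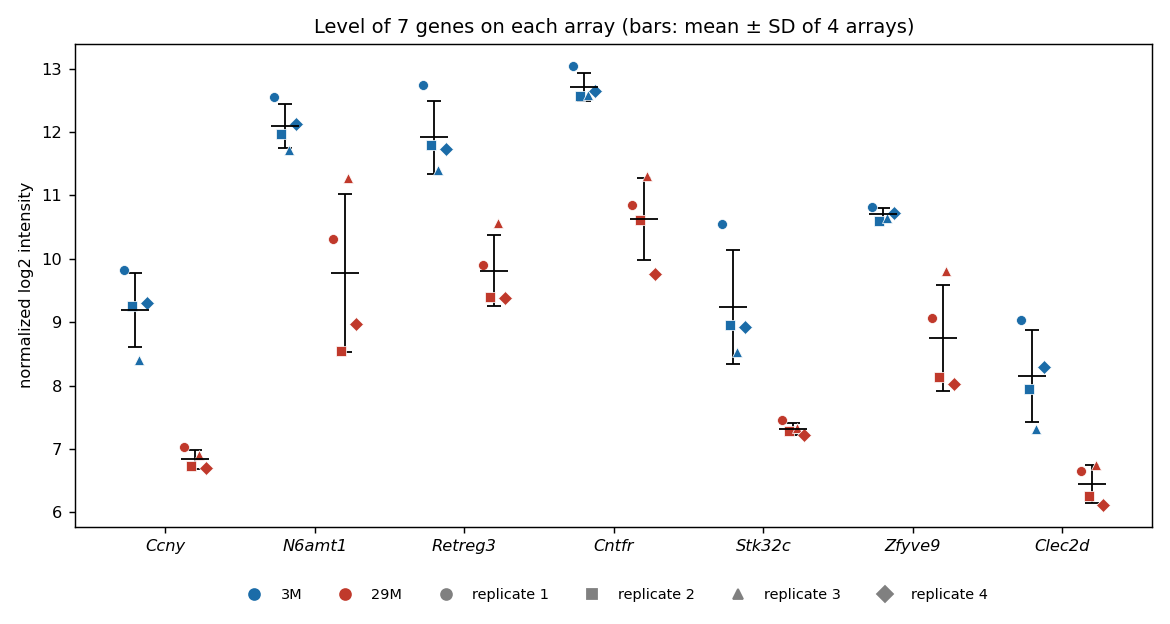
Normalized log2 intensity (vertical axis) of the 7 genes (horizontal axis) on each array, 3M in blue and 29M in red, with a symbol for each replicate number. Black bars give the mean and SD of 4 arrays, and in all 7 genes the lowest 3M array lies above the highest 29M array.

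All 7 genes passed both thresholds of the comparison, an adjusted p under 0.1 in limma and a log2 change of at least 0.5 (1.414-fold), and their groups did not overlap. Of all genes tested, 0.709% were lower past both thresholds and 5.38% were lower with groups that did not overlap, and nothing is read from this contrast because the genes were chosen by it. Without 29M replicate 2 only 4 of the 7 passed, N6amt1, Stk32c and Clec2d being past the fold threshold alone. Converted from the normalized log2 changes, the falls were 5.12-fold for Ccny, 4.98-fold for N6amt1, 4.29-fold for Retreg3, 4.23-fold for Cntfr, 3.84-fold for Zfyve9, 3.77-fold for Stk32c and 3.26-fold for Clec2d. These folds hold for the normalized scale only and are not ratios of background-subtracted intensities. On the log2 scale of the processed signal, which is background-subtracted and was scaled to the 75th percentile of each array, the change was -2.96 for Ccny, -2.73 for Clec2d and -2.27 for Stk32c, and the other 4 genes lay between -2.46 and -2.10. The order of the genes by size of fall therefore moved with the scale, with Clec2d last on the normalized scale and second on the processed signal.

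The spread within the groups, as an SD pooled over both ages, was wide for all 7 genes. Their pooled SD ranked between percentile 95.0 and 99.7 of all tested probes, although their mean intensity lay between percentile 34.7 and 70.1. The median of the same pooled SD over all tested probes was 0.15. Single groups could be narrow, with an SD of 0.10 for Zfyve9 at 3M. At 29M the SD was 0.09 for Stk32c and 0.15 for Ccny. In N6amt1, Cntfr and Zfyve9 the 29M group was the more variable, and in the other 4 genes the 3M group was. On processed signals this turned for Retreg3 (SD 0.55 at 3M and 0.57 at 29M) and Clec2d (SD 0.85 at 3M and 0.87 at 29M).

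Just outside the choice stood Celf3, an RNA-binding splicing regulator of the brain, with a larger fall of -2.48 (SE 0.25), but measured by a probe with 10 spots. Among genes with groups that did not overlap, the next below Clec2d were Slc6a11, the GABA transporter GAT3, at -1.64 (SE 0.32), 9630013A20Rik at -1.42 and Brd8dc at -1.31. Igfbpl1, at -1.53 (SE 0.38), was left out of this order because its groups overlapped. Of all probes lower past both thresholds (0.815% of those tested), 9 fell at least as far as that of Clec2d, and these were the 7 genes, Celf3 and 1 of 3 probes of Hspa4, a gene for a chaperone of the Hsp110 family. The Hspa4 probe changed by -2.60, while the other Hspa4 probes changed by -1.10 and 0.18. Such a comparison between probes cannot be made for the 7 genes, since each had a single one. Where it could be made, 12 genes with several probes had a probe that was lower past both thresholds by at least 1 on the log2 scale. In 6 of them another probe also passed the thresholds, and in the other 6 every other probe changed by less than 0.5.

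The falls varied together across the arrays. In all 7 genes 3M replicate 1 was the highest young array and 3M replicate 3 lay below the young mean, where it was the lowest array in 5 genes and replicate 2 was the lowest in Cntfr and Zfyve9. In all 7 genes 29M replicates 1 and 3 lay above the aged mean and replicates 2 and 4 below it. Replicate 4 was the lowest aged array in 6 genes, with replicate 2 the lowest in N6amt1. Replicate 3 was the highest aged array in 5 genes, with replicate 1 the highest in Ccny and Stk32c.

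Averaged over the 7 genes, the log2 deviation from the group mean was 0.65, -0.13, -0.49 and -0.04 for 3M replicates 1 to 4, and 0.24, -0.37, 0.62 and -0.48 for 29M replicates 1 to 4. The size of the deviation was not shared. For 29M replicate 3 it ran from 0.01 in Stk32c to 1.50 in N6amt1, and for 3M replicate 1 from 0.12 in Zfyve9 to 1.31 in Stk32c. In Ccny, Stk32c and Clec2d, the genes with the dimmest aged arrays, the deviations were larger among the young arrays, though not for Clec2d on processed signals. In N6amt1, Cntfr and Zfyve9 the deviations were larger among the aged arrays.

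**Figure D2:**
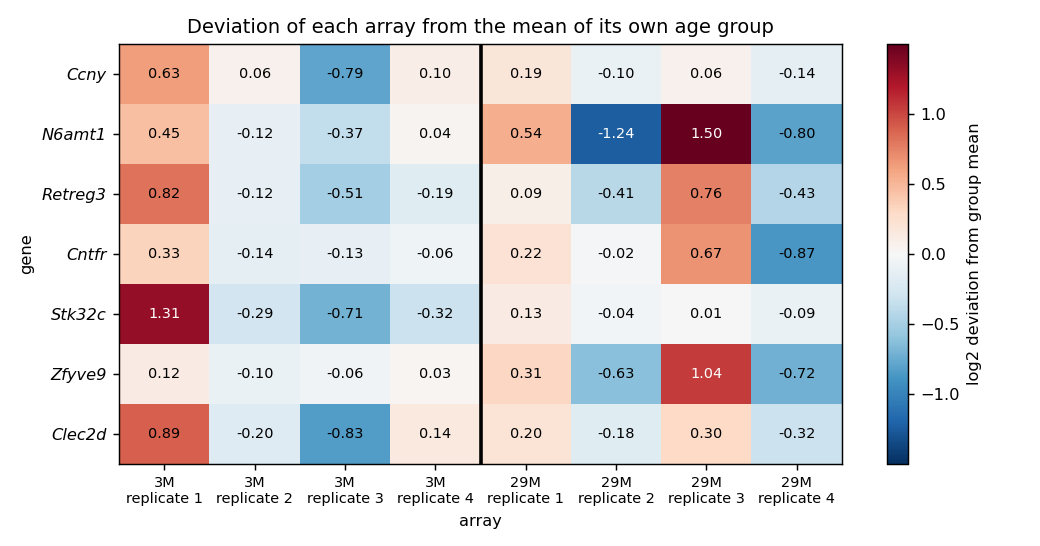
Log2 deviation of each array from the mean of its own age group (colour and printed value) for the 7 genes (rows) on the 8 arrays (columns). The column of 3M replicate 1 is positive for every gene, as are those of 29M replicates 1 and 3, and the columns of 3M replicate 3 and 29M replicates 2 and 4 are negative for every gene.

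The same order, 3M replicate 1 highest, 3M replicate 3 below its mean, and 29M replicates 1 and 3 above and 2 and 4 below theirs, was counted in other genes. It was read from the 7 genes first, so the counts are a description. It was found in 14 of 133 other genes that were lower past both thresholds (10.5%), in 9 of 289 that were higher (3.11%) and in 373 of 19570 genes other than the 7 with a value on all arrays (1.91%). The part on the aged arrays alone was held by 24.1% of the other lower genes and 8.51% of all other genes. Celf3 had the full order, at 13.89, 13.12, 12.53 and 13.43 on the 3M arrays and 10.86, 10.72, 11.01 and 10.47 on the 29M arrays. Slc6a11 did not, because its 3M replicate 1, at 10.60, was the lowest of the young arrays. On processed signals 6 of the 7 genes kept the full order, Stk32c being the exception, and after normexp correction and quantile normalization all 7 did. Whether a property of the samples or of the arrays moved with this order was not tested.

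The genes most like the mean profile of the 7, by root mean square distance between centred log2 values over the 8 arrays and among 16447 genes with a probe well above background, were Celf3 at 0.31, Kifc5b at 0.47, Atcay at 0.54, Brd8dc at 0.55 and 9630013A20Rik at 0.55. The 7 genes themselves lay at 0.11 for Retreg3 to 0.49 for N6amt1. All 5 were lower at 29M, and the distance takes in the age difference as well as the order within groups. Kifc5b, at -1.22, had a second probe that changed by -0.40. Atcay, a brain gene that encodes caytaxin, was lower by -1.27.

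Slides held the groups in unequal numbers, so each fall was also taken within slides. Slide 1 held 3M replicate 1 and 29M replicates 3 and 4, slide 2 held 3M replicate 2 and 29M replicate 2, and slide 3 held 3M replicates 3 and 4 and 29M replicate 1. All 7 genes were lower at 29M on every slide. This direction was fixed in advance, because the groups of each gene did not overlap, so only the sizes are described. The sizes follow in part from the order of the arrays given above. Slide 1 held the highest young array of all 7 genes, and slide 3 held 3M replicate 3, which lay below the young mean. The median change was -2.61 on slide 1, -2.39 on slide 2 and -1.62 on slide 3. Ccny changed by -3.02, -2.52 and -1.83 on slides 1, 2 and 3. Stk32c went from -3.27 on slide 1 to -1.27 on slide 3, the widest range of the 7, and N6amt1 went from -3.43 on slide 2 to -1.61 on slide 3.

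Array position on the slide was tied to age more closely than slide was. Position 4 held only 29M arrays, positions 1 and 3 only 3M arrays, and position 2 held 1 array of each group, 3M replicate 2 and 29M replicate 3. At position 2 all 7 genes were lower in the aged array, as groups without overlap require, with a median of -1.22. Ccny kept its size there, at -2.36, while N6amt1 changed by -0.70 and Zfyve9 by -0.80, and 29M replicate 3 is the aged array in which those genes were highest. With position as a block the age term rested on this pair of arrays, 18 probes in all passed both thresholds in place of 777, and none of the 7 genes did. Position and age can be told apart only in that pair. Its arrays lay on different slides, 3M replicate 2 on slide 2 and 29M replicate 3 on slide 1. Slide and age cannot be told apart there.

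**Figure D3:**
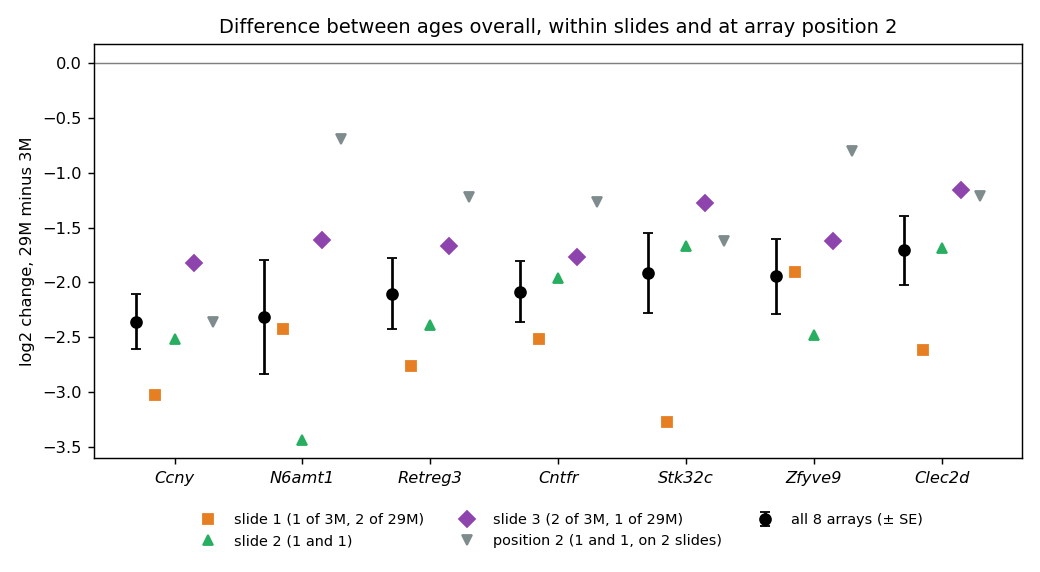
Log2 change from 3M to 29M (vertical axis) of each gene over all 8 arrays (black, with SE), within each slide and at array position 2. The arrays at position 2 lay on different slides. Every point lies below 0, as groups without overlap require. The points of position 2 for N6amt1 (-0.70) and Zfyve9 (-0.80) are the closest to it.

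Genes listed around the 7 in their pathways were counted by the same thresholds. Of 108 genes in 7 lists 106 had a tested probe, and 0 were lower past both thresholds in limma, with 0.709% lower among all genes, while 16 had an unadjusted p under 0.05. Without 3M replicate 1 there were 2, Acvr2a (-0.56) and Clec2e (-0.52), and without 29M replicate 3 there was 1, Clec2e (-0.57). Both Osmr and Socs3 were higher (1.89% of the listed genes, with 1.46% higher among all genes). With shares this small over all genes, neither count among 106 genes says much about the lists. The median change of the listed genes was 0.01, as it was over all genes, with 57 above 0 and 49 below.

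Cyclin Y partners and related kinases had a median of -0.14 over 11 genes. The paralog Ccnyl1 changed by -0.13, and the kinases that bind cyclin Y changed by -0.17 for Cdk14 and -0.14 for Cdk16, none past the thresholds. Another probe of Ccnyl1 changed by 0.37. The Wnt coreceptor gene Lrp5 had the lowest value of the list, -0.50, at an adjusted p of 0.310 in limma.

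In the list of N6amt1 partners and termination factors (12 genes, median 0.06), Trmt112, the subunit that N6amt1 needs, changed by 0.09. Another probe of Trmt112 changed by -0.05. Etf1, which encodes the substrate of N6amt1, changed by 0.35 (adjusted p = 0.122 in limma). The ER-phagy list (17 genes, median 0.00) held the other members of the Retreg3 family, with changes of 0.45 for Retreg1 and 0.12 for Retreg2, and none of the list had an unadjusted p under 0.05.

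The CNTF receptor list of 19 genes, around Cntfr, was the one with genes past the thresholds. Socs3, an inhibitor of cytokine signalling that Stat3 induces, read 10.59, 10.23, 10.45 and 9.91 at 3M and 11.52, 11.70, 11.47 and 11.08 at 29M. It rose by 1.15 (SE 0.17, limma adjusted p = 0.0140), and the groups did not overlap. Osmr, which encodes the oncostatin M receptor, read 10.87, 10.55, 10.40 and 10.69 at 3M and 11.40, 11.51, 11.58 and 11.23 at 29M. It rose by 0.80 (SE 0.12, limma adjusted p = 0.0148), also without overlap. As groups without overlap require, both were higher at 29M on each of the 3 slides. The rises on slides 1, 2 and 3 were 0.69, 1.47 and 1.34 for Socs3 and 0.53, 0.96 and 0.86 for Osmr. With array position as a block, where the age term rested on 1 array per group, neither passed the thresholds, at 1.24 for Socs3 and 1.04 for Osmr.

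The named ligand genes and signalling subunits of the Cntfr receptor did not pass the thresholds. Among the ligands, Cntf changed by 0.05 and Clcf1 by 0.01. Among the subunits, Il6st changed by 0.04 and Lifr by -0.09. Another probe of Lifr changed by 0.05. The median of the whole list was 0.02.

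Kinases of the Stk32 family and the AGC group (16 genes, median -0.02) included Stk32a at -0.19 and Stk32b at -0.05. Another probe of Stk32a changed by 0.09. The TGF-beta list around Zfyve9 (18 genes, median 0.02) included Smad2 at 0.03, Smad3 at 0.20 and Tgfbr1 at 0.47, none past the thresholds. The other probes of Smad3 and Tgfbr1 changed by -0.18 and -0.04. Of 15 Clec2 and NKR-P1 genes 13 had a tested probe (median -0.04), and only 3 were well above background on all arrays of a group. Klrb1b, the receptor gene for Clec2d, was well above background on 0 of 4 arrays at 3M and 3 of 4 at 29M. Clec2g, Clec2h, Klrb1, Klrb1c and Klrk1 were not well above background on any array. Klrb1f was well above background on 1 array and Cd69 on 3 of the 8, so no change is given for them. Clec2i, Clec2l and Clec2e, above background on all 8 arrays, changed by 0.04, -0.19 and -0.49. Clec2e is taken up again with the chromosomal neighbours.

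Neighbouring genes on the chromosome were counted in the same way. For each of the 7 genes the 2 nearest genes with a tested probe on each side, in the order of the RefSeq table, gave 28 genes with a median of -0.01, some of them also in the Clec2 list. None passed both thresholds, and 3 had an unadjusted p under 0.05 in limma. Among all genes 0.709% were lower and 1.46% higher past both thresholds. A count of 0 among 28 genes therefore says little about neighbours. The neighbour of Clec2d with the lowest value was Clec2e, at -0.49 (limma adjusted p = 0.0670), just under the fold threshold, and past it without 3M replicate 1 or 29M replicate 3. It was chosen for mention after its value was seen.

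**Figure D4:**
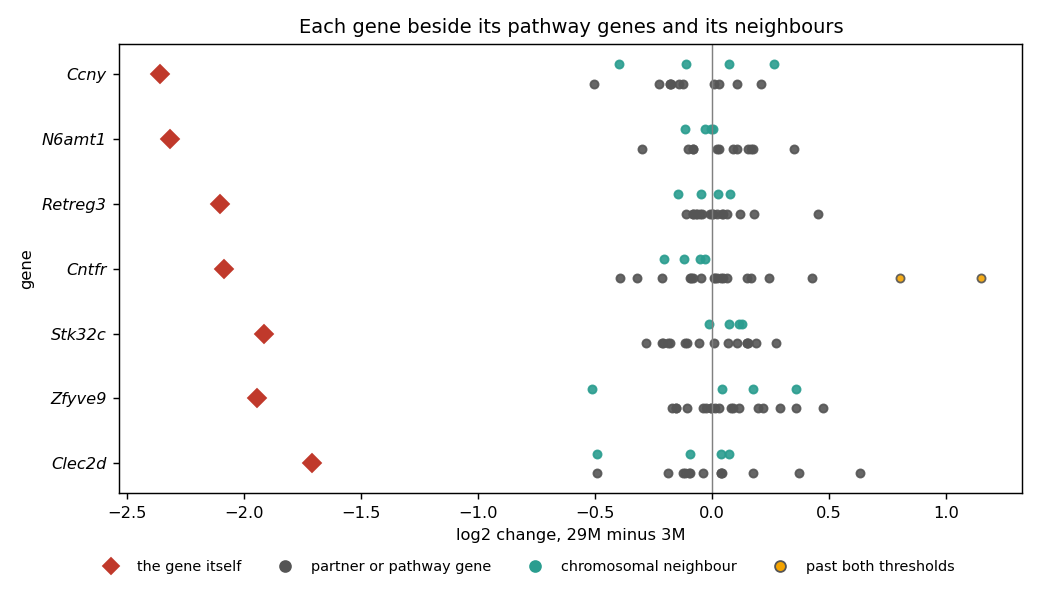
Log2 change from 3M to 29M (horizontal axis) of each of the 7 genes (red diamonds, rows) beside its pathway genes (grey) and its chromosomal neighbours (green). The 7 genes lie between -2.36 and -1.71, and the 2 genes past both thresholds (orange), Osmr at 0.80 and Socs3 at 1.15, lie on the other side of 0.

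Promoter sequence was the remaining feature that was compared, as a description. The genes were chosen for their falls, so the joint fall gives no sign of shared control. RefSeq windows of 250 bases before a transcription start (GRCm38.p6) were at hand for 6 of the 7 genes, in 12 windows. The genes did not share a base composition. The windows of Retreg3 (64.0% G and C, 33 CG dinucleotides) and Stk32c (67.6% and 18 in the first of 2 windows) were rich in G and C, and those of N6amt1 (36.4% and 4) and Zfyve9 (37.2% and 2) were poor, beside a median of 52.4% and 6 over 32851 windows. The first pair is shown with GC boxes (GGGCGG, either strand) and CCAAT boxes (CCAAT, either strand) in capitals, and the second pair as windows that hold neither.
Retreg3, chr11:101119842-101120091, minus strand: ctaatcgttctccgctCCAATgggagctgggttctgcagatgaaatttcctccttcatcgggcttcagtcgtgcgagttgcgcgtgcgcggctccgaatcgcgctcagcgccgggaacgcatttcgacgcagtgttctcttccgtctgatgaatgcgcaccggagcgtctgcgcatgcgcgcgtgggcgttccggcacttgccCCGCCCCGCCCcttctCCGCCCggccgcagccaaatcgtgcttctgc
Stk32c, chr7:139213308-139213557, minus strand: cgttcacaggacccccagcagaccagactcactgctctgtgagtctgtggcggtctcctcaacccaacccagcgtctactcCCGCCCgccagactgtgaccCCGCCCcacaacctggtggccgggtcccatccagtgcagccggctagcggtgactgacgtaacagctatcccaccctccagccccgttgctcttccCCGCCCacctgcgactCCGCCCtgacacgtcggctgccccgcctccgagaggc
N6amt1, chr16:87353935-87354184, plus strand: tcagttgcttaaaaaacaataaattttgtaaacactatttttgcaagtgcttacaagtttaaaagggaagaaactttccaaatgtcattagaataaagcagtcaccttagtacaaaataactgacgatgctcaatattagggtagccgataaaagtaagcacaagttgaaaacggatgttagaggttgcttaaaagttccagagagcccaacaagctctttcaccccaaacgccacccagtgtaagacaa
Zfyve9, chr4:108781089-108781338, minus strand: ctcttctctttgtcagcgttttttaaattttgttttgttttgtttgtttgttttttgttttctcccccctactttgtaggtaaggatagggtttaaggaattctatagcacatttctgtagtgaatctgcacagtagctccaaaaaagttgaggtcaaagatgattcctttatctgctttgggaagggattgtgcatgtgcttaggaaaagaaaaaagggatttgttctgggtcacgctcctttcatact
Retreg3 held 3 GC boxes, of which neighbouring ones can share a base, and 1 CCAAT box. Stk32c held 4 GC boxes. A GC box was found in 6 of the 12 windows, from 3 of the 6 genes (Retreg3, Stk32c and Cntfr), and in 32.7% of all windows. Cntfr alone gave 6 of the 12 windows. The CCAAT letters were found in 2 of the 12 windows (Retreg3 and Clec2d) and in 33.8% of all windows. A TATA box (TATAAA, either strand) and an E2F motif (TTTCCCGC, either strand) were each found in 0 of the 12 windows, with 12.4% and 0.895% of all windows holding them. An EGR motif (GCGTGGGCG, either strand) was found in 1 of the 12 windows, that of Retreg3, and in 0.536% of all windows. None of the 5 motifs was common to the 6 genes.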

How the data were processed

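Hippocampal RNA was measured in 8 samples of mice, 4 at 3M and 4 at 29M, with groups and replicate numbers from the sample titles. The sources used here do not name the animal behind each array, so the spread between arrays may be partly technical. The authors deposited 1 scanner file per array with linear intensities of each spot, not normalized between arrays, made with Agilent Feature Extraction 10.7.3.1 per the file headers, a version other than the one the study's methods name. Median spot intensities were used, because the mean intensity planned as input was not used here. The deposited series table also holds intensities, but each of its 8 columns was the mean local background of an array (tolerance 0.001), 7 of them those of another sample, so it was not used as expression. Its column medians ran from 26.7 to 34.8 scanner units, linear and not centred, and it gives no direction of expression. The series table and the scanner files thus disagree on which array belongs to which sample. Groups and replicate numbers here follow the sample of each scanner file, and whether that assignment is right was not tested.

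Control spots and outlier spots (127 to 190 per array) were left out, and no spot was saturated. A variance stabilising model (least trimmed squares, quantile 0.9, 7 iterations), written for this purpose in R 4.3.3, gave generalized log2 values. The study's methods gave its type, the linear model and both thresholds. Spots of 1 probe were averaged (399 probes with 10 spots, 39030 with 1). A term for age was fitted per probe in limma 3.58.1 with eBayes, for the 39408 of 39429 probes that had 3 or more usable arrays in each group, and p-values were adjusted by Benjamini-Hochberg over all of them. The number of arrays limits the precision. Tested on simulated data for this comparison (39429 probes, 200 changed), 100% of falls of 2 and 87.2% of falls of 1 on the log2 scale were recovered, and 6.57% of calls were false. The simulated noise was independent between spots and arrays, with no effect of slide or array position. These rates may therefore not hold for the real arrays.

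Accessions matched RefSeq genes of GRCm38.p6 for 26055 probes (66.1%) in 19751 genes. The array design was made on mm9, so coordinates are given only for RefSeq promoter windows. A gene stands by its probe with the highest mean. The 7 genes, the pathway, neighbour and marker lists and the alternatives were chosen with earlier results of these data known. Named genes were the 7, Celf3 and the next 3 falls, listed direct partners, listed genes past the thresholds and the 5 genes of most similar profile, and 1 listed partner is not reported here. Hspa4, Igfbpl1, Lrp5 and Clec2e were added after their values were seen. Alternatives were processed signals scaled to the 75th percentile, normexp (offset 50) with quantile normalization, outlier spots kept, bright probes only, a block for slide, array position or replicate number, an intensity trend, an adjusted p under 0.05, and each array left out.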

Additional observations from a re-analysis of the deposited data

Results flagged for a closer look

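Among 66 groups of 4 arrays examined (the 7 genes and the named partners, in each age group), 5 held an array far from the other 3 by Dixon's criterion, where chance gives about 1 in 20, or 3.3. None was a group of the 7 genes. Lifr, a signalling subunit of the Cntfr receptor, was low on 3M replicate 1, at 13.23 beside 13.54 to 13.58 (gap over range 0.887). Cd69, well above background on 3 of the 8 arrays, was high on 3M replicate 1, at 7.04 beside 5.81 to 6.00 (0.849), and Clec2g, which was not well above background on any array, was high there too, at 6.01 beside 5.49 to 5.58 (0.830). Smad3 was low on 3M replicate 3, at 14.22 beside 14.45 to 14.48 (0.880). Stk32a was low on 29M replicate 3, at 8.21 beside 8.40 to 8.43 (0.884). The cause of these values was not tested.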

How the results depend on the processing

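In each of 17 alternatives all 7 genes stayed lower at 29M, which groups without overlap make near certain. Ccny ran from -2.96 to -2.13, N6amt1 from -2.81 to -0.70, Retreg3 from -2.35 to -1.22, Cntfr from -2.30 to -1.27, Zfyve9 from -2.29 to -0.80, Stk32c from -2.27 to -1.47 and Clec2d from -2.73 to -1.21. Changes beyond the spread between replicates came with processed signals (Ccny -2.96, Clec2d -2.73) and with array position as a block (N6amt1 -0.70, Retreg3 -1.22, Cntfr -1.27, Zfyve9 -0.80). With the position block none of the 7 genes and 0 pathway genes passed both thresholds, Socs3 and Osmr included, and the age term rested on 1 array per group. N6amt1 missed the thresholds with processed signals. Leaving out 1 array gave 4 to 7 of the 7 genes past the thresholds. The lowest count, 4, came without 29M replicate 2 (N6amt1, Stk32c and Clec2d missed), and N6amt1 and Stk32c also missed without 29M replicate 1 or replicate 4, and N6amt1 without 3M replicate 2, 3 or 4. Leaving out 1 array gave 0 to 2 pathway genes lower, namely Acvr2a (-0.56) and Clec2e (-0.52) without 3M replicate 1 and Clec2e (-0.57) without 29M replicate 3, and 0 to 1 neighbour genes lower, again Clec2e. Pathway genes higher numbered 2 in all other alternatives but processed signals, which added Il6 (1.07). The cause of these shifts was not tested. Over all probes 777 passed both thresholds, 1415 without 3M replicate 1, 394 without 3M replicate 2 and 486 with the replicate number as a block. That replicate block left 6 of the 7 genes past the thresholds, N6amt1 missing. Deviations of same-numbered arrays correlated at -0.26 to 0.22, and 1 of 4 young arrays correlated best with its own number. Pairing by number was thus not seen, though this check cannot exclude it.

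Each of the 7 genes rests on 1 spot per array. Dim spots limit Clec2d, Ccny and Stk32c, whose aged arrays read 67 to 178 scanner units, and position and age are tied in all but 1 pair of arrays.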
